A study of Mus musculus with 11 samples.

Results

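Axon guidance ligands and receptors were taken from the count table by their symbols, and 69 of its 38406 genes matched. They comprised 20 semaphorins, 11 plexins and neuropilins, 8 ephrins, 14 Eph receptors, 7 Slits and Robos and 9 netrins and netrin receptors. The measurements came from 11 libraries of mouse cerebellar tumours of strain CD1, sequenced from the 3′ ends of messenger RNA, in 4 groups by title. The MYC/Gfi1 tumours (n = 2) and the MYC/Otx2 tumours (n = 3) carried the genes of their names under expression labelled constitutive, and the series presents both as Group 3 medulloblastoma models from earlier work. In the S100b-cell tumours (n = 3), MYC and Gfi1 were expressed in S100b-positive cells. In the N1ICD tumours (n = 3), MYC and Gfi1 were expressed in Math1-positive cells together with N1ICD, the part of the receptor Notch1 that acts inside the cell. All groups thus carried MYC, and all but the MYC/Otx2 group carried Gfi1. The sources used here do not give the age of the animals, the promoters or how the genes were delivered, and they do not tie libraries to separate animals. P-values therefore measure the spread between libraries, which may be technical.

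Axon guidance genes encode cues that growing axons and migrating cells read at their surface. Secreted cues (class 3 semaphorins, netrins and Slits) spread from their source, while ephrins and most other semaphorins stay on the membrane and act on contact. Plexins with neuropilins receive semaphorins, Eph receptor tyrosine kinases receive ephrins, Robo receptors receive Slits, and Dcc and the Unc5 receptors receive netrins. In the developing cerebellum these systems guide migrating neurons and the wiring of their axons, and vessels use several of the same genes.

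Libraries held 2.58 to 15.19 M counts and were shallowest in the N1ICD group. Levels are given as CPM, counts scaled to a common library size, and 3 counts corresponded to 1.05 to 1.29 CPM in the N1ICD libraries and to 0.194 to 0.436 CPM in the others. Mitochondrially encoded genes took 5.18 to 6.00% of counts in the constitutive groups, 14.73 to 18.53% in the S100b-cell and 23.25 to 27.6% in the N1ICD libraries. The library columns are named in 3 styles along the same lines, so outside the constitutive pair the tumour model and the set of libraries cannot be told apart. The sources used here do not give the 3′ ends of the introduced genes, so levels at the mouse symbols do not check the labels. Gfi1 was at 0 to 0.283 CPM in the MYC/Otx2 libraries and 0.697 to 13.9 CPM elsewhere. Myc was at 31.5 to 128 CPM in the MYC/Otx2, 11.04 to 27.5 in the MYC/Gfi1, 2.005 to 4.21 in the S100b-cell and 0.429 to 2.44 CPM in the N1ICD libraries. Otx2 was at 13.7 to 97.0 CPM in the MYC/Otx2 libraries, 13.7 CPM in N1ICD replicate 1 and 0 to 2.80 CPM in the others. Notch1 was at 0.349 to 2.44 CPM in the N1ICD and 0 to 0.453 CPM in the other libraries. Atoh1, which encodes Math1, had no count in any N1ICD library. S100b was at 1.23, 27.7 and 63.8 CPM in the S100b-cell libraries and 4.62 to 557 CPM in the others. Some libraries stood apart in cell type markers. MYC/Gfi1 replicate 2 held 10 mature granule cell markers at a summed 4688 CPM, against 11.2 to 584 CPM in the other 10 libraries. It also held 8 Purkinje cell and interneuron markers at 1815 CPM, against 16.8 to 193 CPM. Of these, Pcp2 was at 0.145 CPM there, within the 0 to 0.429 CPM of the other libraries. The other genes of that list were higher there than in any other library. In MYC/Gfi1 replicate 2, 10 oligodendrocyte lineage markers summed to 844 CPM, against 34.8 to 275 CPM. N1ICD replicate 1 held 7 choroid plexus markers, Otx2 among them, at 4719 CPM, of which Ttr gave 4672 and Kcnj13 gave 0, against 2.78 to 598 CPM elsewhere. Of that list, Folr1, Aqp1, Otx2 and Clic6 were each higher in at least 1 other library. N1ICD replicates 2 and 3 held 10 pericyte and smooth muscle markers at 6874 and 2823 CPM, against 58.3 to 288 CPM in the others. Of these sums Rgs5 gave 3409 and 822 CPM and Acta2 2584 and 1219 CPM. In replicate 2, Des at 2.79 and Tagln at 21.6 CPM were within the range of the libraries other than replicates 2 and 3. The other genes of the list were above that range. MYC/Gfi1 replicate 1 held 9 lymphocyte and plasma cell markers at 628 CPM, of which Igkc gave 517, against 0.249 to 81.6 CPM in the others. In whole tumours, fewer cells of a type and less RNA per cell cannot be told apart.

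Of the 69 genes, 63 had enough counts to be tested among the 15228 genes of the fit, including all semaphorins, plexins, neuropilins, Slits and Robos. A gene was called when its p from edgeR's quasi-likelihood test, adjusted by Benjamini-Hochberg over all genes tested, was under 0.05. The N1ICD and MYC/Otx2 tumours differed in the most guidance genes: 14 were higher and 10 lower in the N1ICD tumours, or 38.1% of the 63. Of all genes tested, 21.8% were called in that comparison, 12.01% higher and 9.76% lower. Between the S100b-cell and MYC/Otx2 tumours, 8 were higher and 6 lower in the S100b-cell tumours (22.2%), where the background over all genes was 17.9%, with 10.02% higher and 7.89% lower. N1ICD against MYC/Gfi1 tumours gave 1 higher and 6 lower (11.1%, background 11.5%, with 5.47% higher and 6.05% lower). S100b-cell against MYC/Gfi1 tumours gave 3 lower and none higher (4.76%, background 4.35%, with 2.01% lower and 2.34% higher). N1ICD against S100b-cell tumours gave 2 lower and none higher (3.17%, background 1.21%, with 0.407% lower and 0.808% higher). Between the constitutive groups, 2 were higher and 2 lower in the MYC/Otx2 tumours (6.35%, background 5.46%, with 2.43% higher and 3.03% lower). The median log2 change of the 63 genes was 0.49 for N1ICD against MYC/Otx2, where that of all genes tested was 0.14, and -1.05 for MYC/Otx2 against MYC/Gfi1, where that of all genes was -0.14. Setting genes without a count in a group to their bound left both medians of the 63 as they were. Only 2 of the 63 were set so in each comparison. They stayed on the same side of the median, so this could not move it. The comparisons share groups of libraries and are given side by side. Some genes pass the filter on low counts through 1 high group, so these counts describe the genes that passed and support no statement on all 69.

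These counts moved when each library was left out in turn, and so did the share of all genes called in the same fits. N1ICD against MYC/Otx2 gave 9 to 20 called genes, with 9, 10 and 12 without MYC/Otx2 replicates 3, 1 and 2, where 10.9 to 12.3% of all genes were called. S100b-cell against MYC/Otx2 gave 8 to 11, with 8 without MYC/Otx2 or S100b-cell replicate 3 (7.89 to 7.95% of all genes) and 9 without MYC/Otx2 replicate 2 (8.50%). N1ICD against MYC/Gfi1 gave 4 to 8, with 4 without N1ICD replicate 2 or 3 (5.28 to 5.86% of all genes). For S100b-cell against MYC/Gfi1, edgeR made 7 calls without MYC/Gfi1 replicate 1 (12.2% of all genes). It made none without MYC/Gfi1 replicate 2, where 8 members (12.1%) and 16.1% of all genes had an unadjusted p under 0.05. It also made none without S100b-cell replicate 1, 2 or 3, where 13, 14 and 10 members (15.9 to 22.2%) and 18.7 to 19.5% of all genes had one. For MYC/Otx2 against MYC/Gfi1 it made 1 call without MYC/Otx2 replicate 2 (1.53% of all genes). It made none without MYC/Otx2 replicate 1 or 3, where 15 and 16 members (23.8 to 25.4%) and 20.6 to 21.4% of all genes had an unadjusted p under 0.05. For N1ICD against S100b-cell it made 1 without S100b-cell replicate 1 or 2 or any N1ICD library (0.119 to 1.74% of all genes). It made none without S100b-cell replicate 3, where 18 members (28.6%) and 12.8% of all genes had an unadjusted p under 0.05. With all libraries, DESeq2 called 10, 19 and 13 members in these last 3 comparisons (15.9, 30.2 and 20.6% of the 63), against 15.1, 17.7 and 8.93% of all genes. It was not run with libraries left out.

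**Figure D1:**
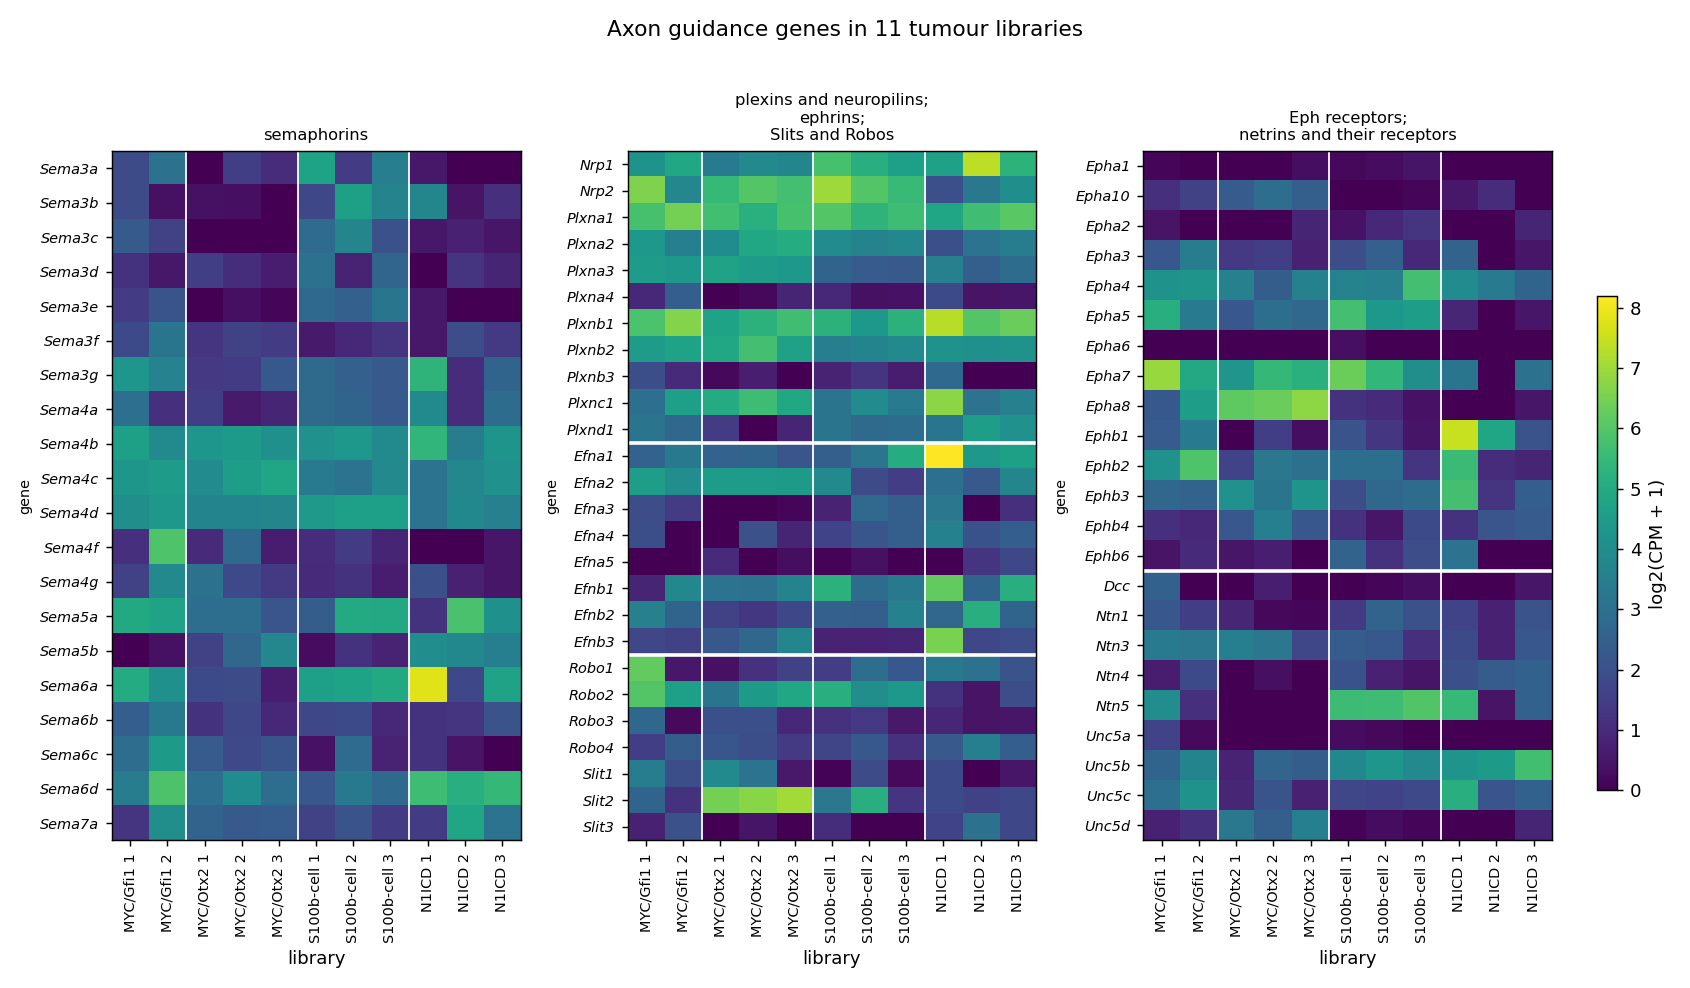
Expression of the 69 axon guidance genes as log2(CPM + 1) in the 11 libraries, with genes in rows by family and libraries in columns by group; white lines separate families and groups. Epha8 and Slit2 are brightest in the 3 MYC/Otx2 libraries, and Efna1, Sema6a and Ephb1 are brightest in N1ICD replicate 1.

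Epha5, Epha8 and the plexin gene Plxna3 were each called in 4 comparisons, more than any other guidance gene. The 250 bases before their transcription starts are shown because the results turn on these genes. The sequences come from RefSeq, build GRCm38.p6, and read 5′ to 3′ on the strand of the gene. Capitals mark a match, on either strand, to TGGGAA (the core bound by RBPJ, the DNA-binding partner of N1ICD), CACGTG (the E-box bound by MYC with MAX) or TAATCC (the core bound by OTX2).
Epha5 (chr5:84417383-84417632, minus strand): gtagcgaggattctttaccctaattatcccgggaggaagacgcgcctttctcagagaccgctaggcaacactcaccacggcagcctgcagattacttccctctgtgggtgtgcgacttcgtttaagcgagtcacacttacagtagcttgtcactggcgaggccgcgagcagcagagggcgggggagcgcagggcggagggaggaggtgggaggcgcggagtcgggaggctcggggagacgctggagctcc
Epha8 (chr4:136956817-136957066, minus strand): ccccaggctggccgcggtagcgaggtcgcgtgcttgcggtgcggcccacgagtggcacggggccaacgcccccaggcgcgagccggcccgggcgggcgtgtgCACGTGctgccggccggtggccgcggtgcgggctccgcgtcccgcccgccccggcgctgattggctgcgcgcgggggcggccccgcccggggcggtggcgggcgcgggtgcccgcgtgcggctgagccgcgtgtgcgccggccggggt
Plxna3 (chrX:74328816-74329065, plus strand): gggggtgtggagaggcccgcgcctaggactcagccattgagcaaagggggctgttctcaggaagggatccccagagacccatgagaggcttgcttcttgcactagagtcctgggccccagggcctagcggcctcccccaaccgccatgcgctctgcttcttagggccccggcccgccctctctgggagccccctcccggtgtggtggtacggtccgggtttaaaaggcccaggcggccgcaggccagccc
Epha8 held 1 CACGTG, beginning 148 bases before the start, and the windows of Epha5 and Plxna3 held none of the motifs. Over the 75 promoters listed for 59 of the 69 guidance genes, TGGGAA occurred in 13 (17.3%, against 21.6% of 32851 promoters of the same length). CACGTG occurred in 4 (5.3%, against 6.0%) and TAATCC in 2 (2.7%, against 6.3%). None of these motifs contains another, and a match describes letters in a window, not a bound site.

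Of the 14 Eph receptors, 11 were tested, and Epha5, Epha7, Epha8, Epha10 and Ephb1 were called. EphA receptors mainly bind the lipid-anchored ephrin-A ligands. N1ICD tumours gave 4 calls against MYC/Otx2 (36.4%, background 21.8%), 3 against MYC/Gfi1 (27.3%, background 11.5%) and 1 against S100b-cell tumours (9.09%, background 1.21%). S100b-cell tumours gave 3 against MYC/Otx2 (27.3%, background 17.9%) and 2 against MYC/Gfi1 (18.2%, background 4.35%). The constitutive groups gave none (background 5.46%). Epha8 (chromosome 4, 136929419 to 136956816, minus strand, mm10), an EphA receptor of the nervous system, was highest in the MYC/Otx2 tumours. Epha8 was at 70.9, 79.2 and 110.4 CPM in the MYC/Otx2 libraries, 3.73 and 22.4 in the MYC/Gfi1 libraries, 1.29, 0.968 and 0.313 in the S100b-cell libraries, and 0, 0 and 0.406 in the N1ICD libraries. The MYC/Otx2 libraries lay above all others, and the S100b-cell and N1ICD libraries below both MYC/Gfi1 libraries. Epha8 was lower in N1ICD than in MYC/Otx2 tumours (log2 change -9.21 ± 1.10 SE, edgeR adjusted p = 0.00108) and than in the MYC/Gfi1 tumours (log2 change -6.48 ± 1.15 SE, edgeR adjusted p = 0.0111). The first rested on 2093 counts summed over the MYC/Otx2 libraries against 1 over the N1ICD libraries, a ratio of 675 (95% exact interval 121 to 26683). The second rested on 186 counts summed over the MYC/Gfi1 libraries against 1 over the N1ICD libraries, a ratio of 92.2 (95% exact interval 16.3 to 3661). These intervals are binomial (Clopper-Pearson) and, like those given for other genes, cover counting error only. In the S100b-cell tumours Epha8 was lower than in the MYC/Otx2 tumours (log2 change -6.62 ± 0.82 SE, edgeR adjusted p = 0.00166) and than in the MYC/Gfi1 tumours (log2 change -3.88 ± 0.77 SE, edgeR adjusted p = 0.0294). The difference between the constitutive groups was not called (log2 change 2.74 ± 0.80 SE, edgeR adjusted p = 0.0690). Epha8 lost the S100b-cell call against the MYC/Gfi1 tumours without MYC/Gfi1 replicate 2 or any 1 S100b-cell library (edgeR adjusted p = 0.0765 to 0.175), and the log2 change was -2.08 without MYC/Gfi1 replicate 2. The other 3 calls of Epha8 held without any single library, and its log2 change for N1ICD against MYC/Gfi1 was -9.83 without N1ICD replicate 3.

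Epha5 (chromosome 5, 84054761 to 84417382, minus strand), a receptor of topographic axon mapping, followed another order. Epha5 was at 52.7, 19.8 and 23.1 CPM in the S100b-cell libraries, 35.1 and 9.59 in the MYC/Gfi1 libraries, 3.67, 6.73 and 5.78 in the MYC/Otx2 libraries, and 0.857, 0 and 0.406 in the N1ICD libraries. The N1ICD libraries lay below every other library, with 2, 0 and 1 counts. Epha5 was lower in N1ICD than in S100b-cell tumours (log2 change -6.27 ± 0.90 SE, edgeR adjusted p = 0.0185), from 1395 counts summed over the S100b-cell libraries against 3 over the N1ICD libraries, a ratio of 83.5 (95% exact interval 28.5 to 405). It was lower than in the MYC/Gfi1 tumours (log2 change -5.76 ± 0.92 SE, edgeR adjusted p = 0.00776), from 367 counts summed over the MYC/Gfi1 libraries against 3 over the N1ICD libraries, a ratio of 60.6 (95% exact interval 20.6 to 295). Against the MYC/Otx2 tumours it was lower too (log2 change -3.71 ± 0.89 SE, edgeR adjusted p = 0.0178), from 130 counts summed over the MYC/Otx2 libraries against 3 over the N1ICD libraries, a ratio of 14.0 (95% exact interval 4.68 to 68.7). In the S100b-cell tumours Epha5 exceeded its MYC/Otx2 level (log2 change 2.56 ± 0.66 SE, edgeR adjusted p = 0.0268). Epha5 lost the N1ICD call against the S100b-cell tumours without S100b-cell replicate 3 (edgeR adjusted p = 0.0699). Epha5 lost the S100b-cell call against the MYC/Otx2 tumours without any 1 MYC/Otx2 library or S100b-cell replicate 1 or 3 (edgeR adjusted p = 0.0535 to 0.0985). The N1ICD calls against both constitutive groups held without any single library. Neuron markers were also low in the N1ICD libraries. All 10 had a negative log2 change in N1ICD against MYC/Gfi1 (median -5.58, 4 called), against MYC/Otx2 (median -1.71, 1 called) and against S100b-cell tumours (median -1.22, none called by edgeR and 1 at an unadjusted p under 0.05). They summed to 90.9 to 182 CPM in the N1ICD, 115 to 602 in the S100b-cell, 189.6 to 549 in the MYC/Otx2 and 715 and 3349.6 CPM in the MYC/Gfi1 libraries. Of the 10, Tubb3 had no count in N1ICD replicate 1 and Nefm none in S100b-cell replicate 1. That S100b-cell library held the neuron markers at 115 CPM, within the N1ICD range. Map2 gave 79.4 and Rbfox3 23.2 CPM of that sum, and Map2 gave 84.5, 163 and 52.8 CPM of the sums in N1ICD replicates 1, 2 and 3. S100b-cell replicate 1 held Epha5 at 52.7, Epha7 at 80.7 and Robo2 at 34.7 CPM. The part of neurons in the results for Epha5, Epha7 and Robo2 was not tested.

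Epha10, a receptor that lacks kinase activity, was sparse. Epha10 was at 4.10, 6.73 and 4.62 CPM in the MYC/Otx2 libraries, 1.17 and 2.03 in the MYC/Gfi1 libraries, 0.429, 1.05 and 0 in the N1ICD libraries, and 0, 0 and 0.0782 in the S100b-cell libraries. All N1ICD and S100b-cell libraries lay below all MYC/Otx2 and MYC/Gfi1 libraries. Epha10 was lower in S100b-cell than in MYC/Otx2 tumours (log2 change -7.03 ± 1.17 SE, edgeR adjusted p = 0.00507), from 123 counts summed over the MYC/Otx2 libraries against 1 over the S100b-cell libraries, a ratio of 221 (95% exact interval 38.9 to 8802). It was lower than in the MYC/Gfi1 tumours (log2 change -5.35 ± 1.17 SE, edgeR adjusted p = 0.0358), from 24 counts summed over the MYC/Gfi1 libraries against 1 over the S100b-cell libraries, a ratio of 66.3 (95% exact interval 10.8 to 2726). In the N1ICD tumours it was lower than in the MYC/Otx2 tumours (log2 change -3.31 ± 1.02 SE, edgeR adjusted p = 0.0437). Epha10 kept its S100b-cell call against the MYC/Otx2 tumours without any single library. Epha10 lost the S100b-cell call against the MYC/Gfi1 tumours without MYC/Gfi1 replicate 2 or any 1 S100b-cell library (edgeR adjusted p = 0.0859 to 0.123). Epha10 lost the N1ICD call against the MYC/Otx2 tumours without any 1 MYC/Otx2 library or N1ICD replicate 1 or 3 (edgeR adjusted p = 0.0773 to 0.104).

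Epha7, a receptor with a role in axon repulsion, was low in the N1ICD tumours. Epha7 was at 121 and 29.9 CPM in the MYC/Gfi1 libraries, 80.7, 41.5 and 15.5 in the S100b-cell libraries, 18.2, 42.8 and 35.4 in the MYC/Otx2 libraries, and 8.15, 0 and 7.30 in the N1ICD libraries. Every N1ICD library lay below every other library. Epha7 was lower in N1ICD than in MYC/Gfi1 tumours (log2 change -3.89 ± 1.10 SE, edgeR adjusted p = 0.0489). Epha7 lost the N1ICD call against the MYC/Gfi1 tumours without any 1 MYC/Gfi1 library or any 1 N1ICD library (edgeR adjusted p = 0.0568 to 0.190), and the log2 change was -2.55 without MYC/Gfi1 replicate 1. In the same comparison all 10 neuron markers had a negative log2 change (median log2 change -5.58, 4 called). S100b-cell replicate 1 held these markers at 115 CPM, within the N1ICD range, and Epha7 at 80.7 CPM. The part of neurons in the Epha7 result was not tested. Of the EphB receptors, which mainly bind the transmembrane ephrin-B ligands, Ephb1 was called once. Ephb1 was at 178, 26.8 and 3.25 CPM in the N1ICD libraries, 4.08 and 9.15 in the MYC/Gfi1 libraries, 0, 1.87 and 0.231 in the MYC/Otx2 libraries, and 3.24, 1.45 and 0.391 in the S100b-cell libraries. Each N1ICD library lay above every MYC/Otx2 library (log2 change 6.59 ± 1.64 SE, edgeR adjusted p = 0.0207), although the N1ICD libraries themselves ran from 3.25 to 178 CPM. Ephb1 lost the N1ICD call against the MYC/Otx2 tumours without MYC/Otx2 replicate 1 or 3 or N1ICD replicate 1 (edgeR adjusted p = 0.0602 to 0.0745). Ephb2 and Ephb3, not called in any comparison and named after their values were seen, were high in the same N1ICD library. Ephb2 was at 46.3, 1.05 and 0.812 CPM and Ephb3 at 54.0, 1.39 and 4.46 CPM in N1ICD replicates 1, 2 and 3. In the MYC/Gfi1 libraries, Ephb2 was at 16.6 and 60.4 CPM. N1ICD replicate 1 is the library with choroid plexus markers at 4719 CPM, of which Ttr gave 4672. The part of choroid plexus cells in these results was not tested.

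**Figure D2:**
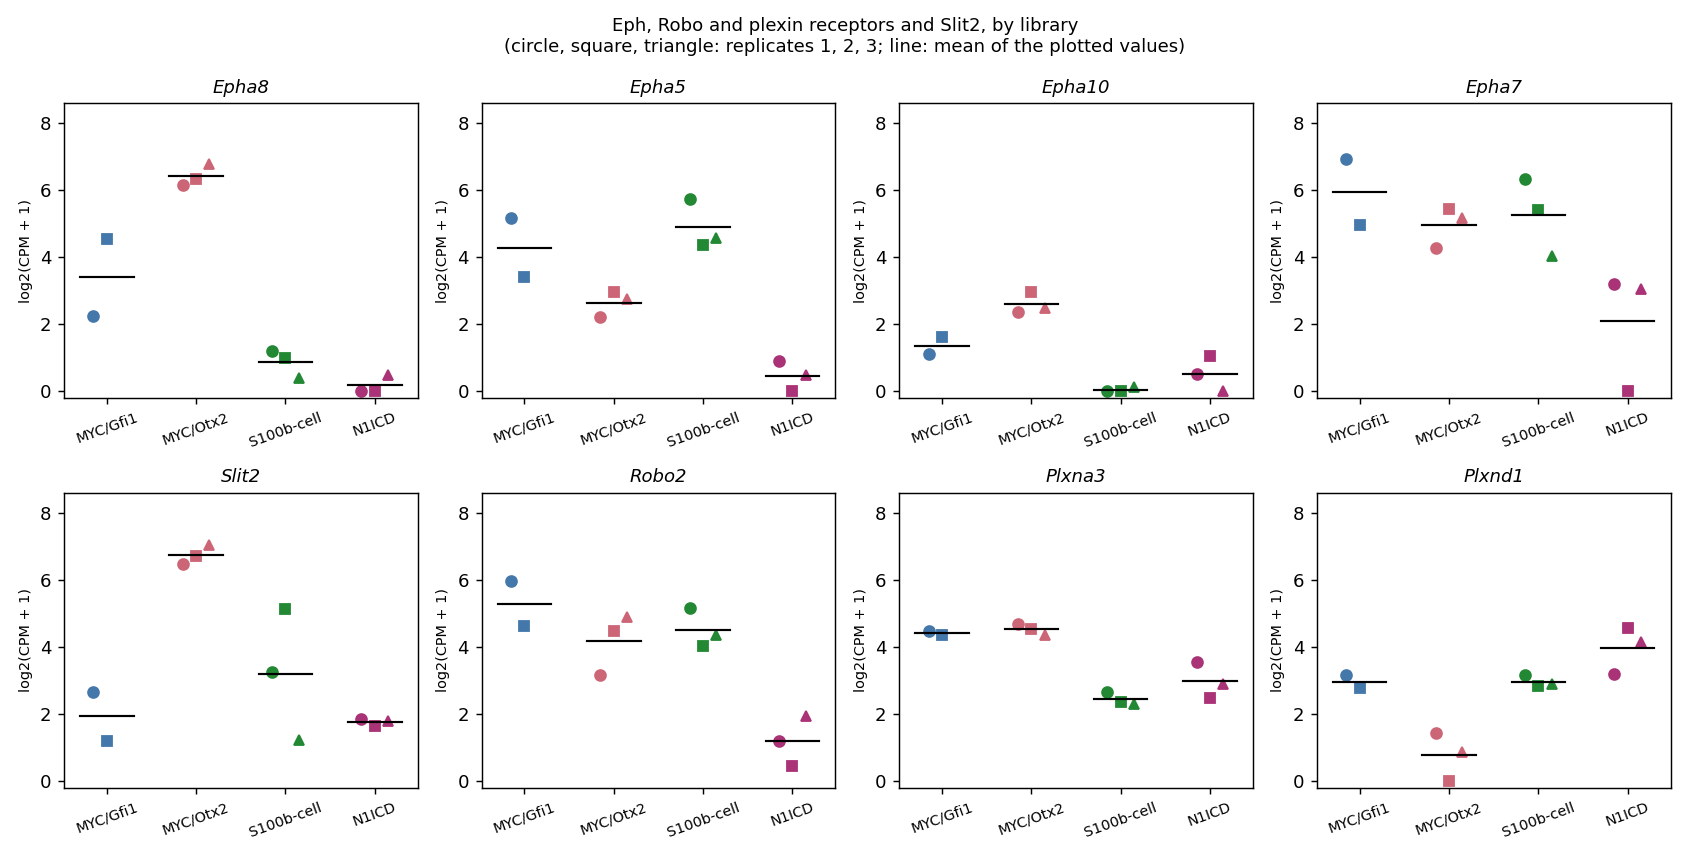
Expression as log2(CPM + 1) of 7 receptor genes and of Slit2 in each library, by group; symbols mark replicates and lines the mean of the plotted values. Epha8 and Slit2 are highest in all 3 MYC/Otx2 libraries, Epha5 and Robo2 are lowest in all 3 N1ICD libraries, and Plxna3 is lower in all 6 S100b-cell and N1ICD libraries (3.91 to 10.7 CPM) than in the constitutive groups.

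Ephrins, the membrane-bound ligands of the Eph receptors, were called higher in N1ICD than in MYC/Otx2 tumours for 3 of the 7 tested, where 12.01% of all genes were called higher, and none was called lower (9.76% of all genes). All 3 calls were lost without any 1 MYC/Otx2 library. Efna1 was at 289.8, 19.5 and 23.9 CPM in the N1ICD libraries, 4.59, 8.30 and 32.7 in the S100b-cell libraries, 4.90 and 8.86 in the MYC/Gfi1 libraries, and 4.94, 5.23 and 3.47 in the MYC/Otx2 libraries. Efna1, which encodes a ligand of EphA receptors that vessels also make, was above every MYC/Otx2 library in all 3 N1ICD libraries (log2 change 4.61 ± 1.16 SE, edgeR adjusted p = 0.0216). Efna1 lost the N1ICD call against the MYC/Otx2 tumours without any 1 MYC/Otx2 library or N1ICD replicate 1 (edgeR adjusted p = 0.0632 to 0.0761), and the log2 change was 2.26 without N1ICD replicate 1. Efnb2 was at 5.57, 34.5 and 5.27 CPM in the N1ICD libraries, 10.8 and 5.23 in the MYC/Gfi1 libraries, 4.66, 4.56 and 11.1 in the S100b-cell libraries, and 1.98, 1.49 and 2.43 in the MYC/Otx2 libraries. Efnb2, an ephrin of arterial vessels, was highest in N1ICD replicate 2 and above every MYC/Otx2 library in all 3 N1ICD libraries (log2 change 2.94 ± 0.81 SE, edgeR adjusted p = 0.0289). Efnb2 lost the N1ICD call against the MYC/Otx2 tumours without any 1 MYC/Otx2 library or N1ICD replicate 2 (edgeR adjusted p = 0.0745 to 0.142), and the log2 change was 1.46 without N1ICD replicate 2. Efna3 was at 8.57, 0 and 1.22 CPM in the N1ICD libraries, 0.712, 5.95 and 4.54 in the S100b-cell libraries, 2.80 and 1.74 in the MYC/Gfi1 libraries, and 0, 0 and 0.116 in the MYC/Otx2 libraries. Efna3 overlapped between the N1ICD and MYC/Otx2 libraries and was called (log2 change 5.84 ± 1.73 SE, edgeR adjusted p = 0.0379), from 23 counts summed over the N1ICD libraries against 1 over the MYC/Otx2 libraries, a ratio of 71.3 (95% exact interval 11.6 to 2937). Efna3 lost the N1ICD call against the MYC/Otx2 tumours without any 1 MYC/Otx2 library or N1ICD replicate 1 (edgeR adjusted p = 0.0875 to 0.200), and the log2 change was 3.43 without N1ICD replicate 1. The S100b-cell libraries lay above every MYC/Otx2 library for Efna3 (log2 change 6.05 ± 1.71 SE, edgeR adjusted p = 0.0366), from 155 counts summed over the S100b-cell libraries against 1 over the MYC/Otx2 libraries, a ratio of 86.2 (95% exact interval 15.3 to 3428). Efna3 lost the S100b-cell call against the MYC/Otx2 tumours without any 1 MYC/Otx2 library or S100b-cell replicate 2 or 3 (edgeR adjusted p = 0.0839 to 0.109).

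Efna2, an ephrin-A, was not called in any comparison and was at 21.6, 21.3 and 20.9 CPM in the MYC/Otx2 and 6.86, 3.83 and 12.6 CPM in the N1ICD libraries. Efnb1, an ephrin-B, was not called either, at 7.63, 7.47 and 11.6 CPM in the MYC/Otx2 and 74.2, 5.23 and 34.9 CPM in the N1ICD libraries. The highest N1ICD library was replicate 1 for Efna1, Efna3 and Efnb1 and replicate 2 for Efnb2. Replicate 1 held 10 astroglial markers at 3104 CPM, against 73.1 to 1444 CPM in the other libraries. Slc1a3 gave 1402 and Fabp7 1058 CPM of that sum. Other genes of that list were not high there: Slc1a2 was at 4.29 CPM against 46.3 to 181 CPM in the constitutive groups, and Gfap at 10.3 and S100b at 11.2 CPM were within the range of the other libraries. The same replicate held the highest choroid plexus sum, 4719 CPM, of which Ttr gave 4672. Replicate 2 held the highest sum of pericyte and smooth muscle markers. The part of these cells in the ephrin results was not tested.

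Slit2 (chromosome 5, 47983138 to 48307733, plus strand), a secreted repellent of axons, was high in the MYC/Otx2 tumours. Slit2 was at 88.0, 105 and 133 CPM in the MYC/Otx2 libraries, 5.25 and 1.31 in the MYC/Gfi1 libraries, 8.54, 34.3 and 1.33 in the S100b-cell libraries, and 2.57, 2.09 and 2.43 in the N1ICD libraries. The MYC/Otx2 libraries lay above every other library. Slit2 was higher in MYC/Otx2 than in MYC/Gfi1 tumours (log2 change 5.03 ± 1.21 SE, edgeR adjusted p = 0.0433), a comparison within 1 library set. It was lower in N1ICD than in MYC/Otx2 tumours (log2 change -5.52 ± 1.08 SE, edgeR adjusted p = 0.00780). The S100b-cell difference from the MYC/Otx2 tumours was not called (log2 change -2.88 ± 0.90 SE, edgeR adjusted p = 0.0516). Slit2 kept its N1ICD call against the MYC/Otx2 tumours without any single library. Slit2 lost the MYC/Otx2 call against the MYC/Gfi1 tumours without MYC/Gfi1 replicate 2 or any 1 MYC/Otx2 library (edgeR adjusted p = 0.0784 to 0.172).

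Robo2 (chromosome 16, 73891839 to 74411825, minus strand), a receptor of Slits, was low in the N1ICD tumours. Robo2 was at 62.5 and 23.5 CPM in the MYC/Gfi1 libraries, 34.7, 15.4 and 19.7 in the S100b-cell libraries, 7.91, 21.2 and 28.5 in the MYC/Otx2 libraries, and 1.29, 0.349 and 2.84 in the N1ICD libraries. Every N1ICD library was below every other library, with 3, 1 and 7 counts. Robo2 was lower there than in the MYC/Gfi1 tumours (log2 change -4.86 ± 0.82 SE, edgeR adjusted p = 0.00915), the S100b-cell tumours (log2 change -3.98 ± 0.77 SE, edgeR adjusted p = 0.0415) and the MYC/Otx2 tumours (log2 change -3.70 ± 0.77 SE, edgeR adjusted p = 0.00978). Robo2 lost the N1ICD call against the S100b-cell tumours without any 1 S100b-cell library or any 1 N1ICD library (edgeR adjusted p = 0.0535 to 0.141). The calls against both constitutive groups held without any single library. All 10 neuron markers had a negative log2 change in these 3 comparisons, with medians of -5.58, -1.22 and -1.71 in the same order. S100b-cell replicate 1 held these markers at 115 CPM, within the N1ICD range, and Robo2 at 34.7 CPM. The part of neurons in the Robo2 results was not tested. Robo1, the other main Slit receptor of neurons, was not called in any comparison and split the MYC/Gfi1 pair. Robo1 was at 74.0 and 0.436 CPM in the MYC/Gfi1 libraries, 0.283, 1.25 and 2.08 in the MYC/Otx2 libraries, 1.81, 6.78 and 3.75 in the S100b-cell libraries, and 9.003, 7.32 and 3.25 in the N1ICD libraries. MYC/Gfi1 replicate 1 lay above all other libraries and replicate 2 within the range of the MYC/Otx2 libraries. Replicate 1 is the library with lymphocyte and plasma cell markers at 628 CPM. It held 10 fibroblast and meningeal markers at 1062 CPM, against 1081 CPM in N1ICD replicate 2. Of that list, Ptgds at 501, Slc6a13 at 148 and Pdgfra at 5.48 CPM were higher than in any other library, and the other genes were not. Col1a1 was at 30.4 CPM there and 212 CPM in S100b-cell replicate 1. The part of these cells in the Robo1 level was not tested. Robo4, the Robo of endothelium, named after its values were seen, was at 3.86, 10.5 and 4.46 CPM in the N1ICD libraries and between 1.25 and 4.36 CPM in all others, with no call. Summed endothelial markers were at 274 to 645 CPM in the N1ICD libraries and 83.0 to 286 CPM in the others. Without Esam, a sum added after the data were seen, they were at 227 to 258 CPM and 67.7 to 246 CPM.

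Among the semaphorins, Sema3b, Sema3c and Sema3e, 3 of the 7 secreted class 3 members, were higher in S100b-cell than in MYC/Otx2 tumours, where 10.02% of all genes were called higher. Fibroblast and meningeal markers (8 of 10 with a positive log2 change, 3 called higher, median 2.23) and microglial and macrophage markers (10 of 10 positive, 3 called higher, median 1.49) were also higher on balance in that comparison. The first summed to 502 to 588 CPM in the S100b-cell and 86.2 to 144 CPM in the MYC/Otx2 libraries, and the second to 631 to 893 and 128 to 424 CPM. In the N1ICD libraries the first summed to 349 to 1081 and the second to 170 to 285 CPM. Sema3c was at 0.406 to 0.697, Sema3e at 0 to 0.429 and Sema3b at 0.349 to 12.4 CPM there. In the MYC/Gfi1 libraries the sums were 1062 and 280 CPM for the first list and 564 and 792 CPM for the second. P2ry12 had no count in MYC/Otx2 replicate 3, and the part of these cells in the class 3 semaphorin results was not tested. Sema3c was at 6.21, 12.2 and 3.13 CPM in the S100b-cell libraries, 3.96 and 2.03 in the MYC/Gfi1 libraries, 0.429, 0.697 and 0.406 in the N1ICD libraries, and 0, 0 and 0 in the MYC/Otx2 libraries. Sema3c (chromosome 5, 17574281 to 17730268, plus strand), a cue for neurons and vessels, had no count in any MYC/Otx2 library. Against a floor of 3 counts over that group it was at least 57.0-fold higher in the S100b-cell and at least 23.8-fold higher in the MYC/Gfi1 tumours (edgeR adjusted p = 0.00298 and 0.0172). The call of the N1ICD against the MYC/Otx2 tumours (edgeR adjusted p = 0.0273) rested on 4 counts in the 3 N1ICD libraries, at least 4.04-fold higher. Sema3c kept its S100b-cell call against the MYC/Otx2 tumours without any single library. Sema3c lost the MYC/Otx2 call against the MYC/Gfi1 tumours without MYC/Otx2 replicate 1 or 3 (edgeR adjusted p = 0.0559 to 0.0594). Sema3c lost the N1ICD call against the MYC/Otx2 tumours without any 1 MYC/Otx2 library or N1ICD replicate 2 (edgeR adjusted p = 0.0585 to 0.0781).

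Sema3e, a ligand that binds Plxnd1 directly, had a similar order of groups. Sema3e was at 6.02, 4.63 and 8.13 CPM in the S100b-cell libraries, 1.75 and 3.34 in the MYC/Gfi1 libraries, 0.429, 0 and 0 in the N1ICD libraries, and 0, 0.249 and 0.116 in the MYC/Otx2 libraries. All S100b-cell libraries lay above all others. Sema3e was higher in S100b-cell than in MYC/Otx2 tumours (log2 change 5.49 ± 1.00 SE, edgeR adjusted p = 0.00734), from 264 counts summed over the S100b-cell libraries against 3 over the MYC/Otx2 libraries, a ratio of 49.0 (95% exact interval 16.6 to 239). It was lower in MYC/Otx2 than in MYC/Gfi1 tumours (log2 change -4.19 ± 1.02 SE, edgeR adjusted p = 0.0451), from 38 counts summed over the MYC/Gfi1 libraries against 3 over the MYC/Otx2 libraries, a ratio of 19.5 (95% exact interval 6.18 to 98.6). Sema3e kept its S100b-cell call against the MYC/Otx2 tumours without any single library. Sema3e lost the MYC/Otx2 call against the MYC/Gfi1 tumours without MYC/Gfi1 replicate 2 or any 1 MYC/Otx2 library (edgeR adjusted p = 0.0724 to 0.135). Sema3b was at 2.46, 24.0 and 11.7 CPM in the S100b-cell libraries, 2.68 and 0.290 in the MYC/Gfi1 libraries, 12.4, 0.349 and 1.22 in the N1ICD libraries, and 0.283, 0.249 and 0 in the MYC/Otx2 libraries. Sema3b, a secreted ligand of neuropilins, was higher in S100b-cell than in MYC/Otx2 tumours (log2 change 6.08 ± 1.61 SE, edgeR adjusted p = 0.0295), with S100b-cell libraries that ran from 2.46 to 24.0 CPM. Sema3b lost the S100b-cell call against the MYC/Otx2 tumours without any 1 MYC/Otx2 library or S100b-cell replicate 2 or 3 (edgeR adjusted p = 0.0647 to 0.0940). Sema3a, the class 3 cue best known for collapsing growth cones, was not called in that comparison (edgeR adjusted p = 0.0667) and is named after its values were seen. Sema3a levels were 26.0, 1.73 and 10.3 CPM in S100b-cell and 0, 1.87 and 1.04 CPM in MYC/Otx2 libraries.

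Sema5b (chromosome 16, 35541145 to 35664732, plus strand), a transmembrane semaphorin, was lowest in the MYC/Gfi1 and S100b-cell tumours. Sema5b was at 15.0, 13.2 and 10.5 CPM in the N1ICD libraries, 1.98, 5.48 and 12.9 in the MYC/Otx2 libraries, 0.194, 1.31 and 0.704 in the S100b-cell libraries, and 0 and 0.290 in the MYC/Gfi1 libraries. All N1ICD and MYC/Otx2 libraries lay above all MYC/Gfi1 and S100b-cell libraries. Against the MYC/Gfi1 tumours Sema5b was higher in the N1ICD tumours (log2 change 6.43 ± 1.38 SE, edgeR adjusted p = 0.0197), from 99 counts summed over the N1ICD libraries against 2 over the MYC/Gfi1 libraries, a ratio of 99.9 (95% exact interval 26.9 to 836). It was also higher in the MYC/Otx2 tumours (log2 change 5.51 ± 1.34 SE, edgeR adjusted p = 0.0441), from 170 counts summed over the MYC/Otx2 libraries against 2 over the MYC/Gfi1 libraries, a ratio of 55.3 (95% exact interval 15.1 to 460.5). It was lower in S100b-cell than in MYC/Otx2 tumours (log2 change -3.19 ± 0.92 SE, edgeR adjusted p = 0.0391). The N1ICD difference from the S100b-cell tumours was not called (log2 change 4.11 ± 0.96 SE, edgeR adjusted p = 0.0729). Sema5b lost the N1ICD call against the MYC/Gfi1 tumours without MYC/Gfi1 replicate 1 (edgeR adjusted p = 0.0532), and the log2 change was 9.73 without MYC/Gfi1 replicate 2. Sema5b lost the MYC/Otx2 call against the MYC/Gfi1 tumours without any 1 MYC/Gfi1 library or any 1 MYC/Otx2 library (edgeR adjusted p = 0.0710 to 0.118), and the log2 change was 8.82 without MYC/Gfi1 replicate 2. Sema5b lost the S100b-cell call against the MYC/Otx2 tumours without MYC/Otx2 replicate 2 or 3 or any 1 S100b-cell library (edgeR adjusted p = 0.0596 to 0.137).

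Sema6d, a transmembrane ligand of Plxna1, was higher in N1ICD than in MYC/Otx2 tumours (log2 change 2.16 ± 0.62 SE, edgeR adjusted p = 0.0340). Sema6d was at 49.3, 35.2 and 43.0 CPM in the N1ICD libraries, 10.02 and 58.7 in the MYC/Gfi1 libraries, 6.92, 14.8 and 6.70 in the MYC/Otx2 libraries, and 3.69, 8.85 and 6.02 in the S100b-cell libraries. The N1ICD libraries were close to each other and above every MYC/Otx2 and S100b-cell library. Sema6d lost the N1ICD call against the MYC/Otx2 tumours without MYC/Otx2 replicate 1 or 3 or any 1 N1ICD library (edgeR adjusted p = 0.0548 to 0.110). Sema6a was at 221, 2.44 and 25.6 CPM in the N1ICD libraries, 31.5 and 16.4 in the MYC/Gfi1 libraries, 23.7, 25.9 and 30.7 in the S100b-cell libraries, and 2.54, 2.62 and 0.578 in the MYC/Otx2 libraries. Sema6a, a transmembrane cue for migrating granule cells, was called against the MYC/Otx2 tumours (log2 change 5.44 ± 1.33 SE, edgeR adjusted p = 0.0191), although N1ICD replicate 2 lay within the MYC/Otx2 range. Sema6a lost the N1ICD call against the MYC/Otx2 tumours without any 1 MYC/Otx2 library (edgeR adjusted p = 0.0574 to 0.0681). Its log2 change was 2.87 without N1ICD replicate 1.

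Sema4f, a transmembrane semaphorin, was lower in N1ICD than in MYC/Gfi1 tumours (log2 change -7.70 ± 1.89 SE, edgeR adjusted p = 0.0308). Sema4f was at 1.17 and 59.7 CPM in the MYC/Gfi1 libraries, 0.989, 5.98 and 0.578 in the MYC/Otx2 libraries, 1.04, 1.66 and 0.782 in the S100b-cell libraries, and 0, 0 and 0.406 in the N1ICD libraries. The difference rested on MYC/Gfi1 replicate 2, the library with neuronal markers at 3349.6 CPM against 90.9 to 715 CPM in the others, whose part in it was not tested. It came from 421 counts summed over the MYC/Gfi1 libraries against 1 over the N1ICD libraries, a ratio of 209 (95% exact interval 37.3 to 8262). Sema4f lost the N1ICD call against the MYC/Gfi1 tumours without MYC/Gfi1 replicate 2 or any 1 N1ICD library (edgeR adjusted p = 0.0668 to 0.319), and the log2 change was -3.02 without MYC/Gfi1 replicate 2. Sema5a, a transmembrane semaphorin and the close relative of Sema5b, was not called in any comparison. Sema5a was at 30.2 and 25.4 CPM in the MYC/Gfi1 libraries, 6.78, 6.73 and 3.47 in the MYC/Otx2 libraries, 4.33, 31.1 and 29.8 in the S100b-cell libraries, and 1.29, 55.4 and 16.2 in the N1ICD libraries. The lowest S100b-cell library lay within the MYC/Otx2 range and the lowest N1ICD library below it.

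**Figure D3:**
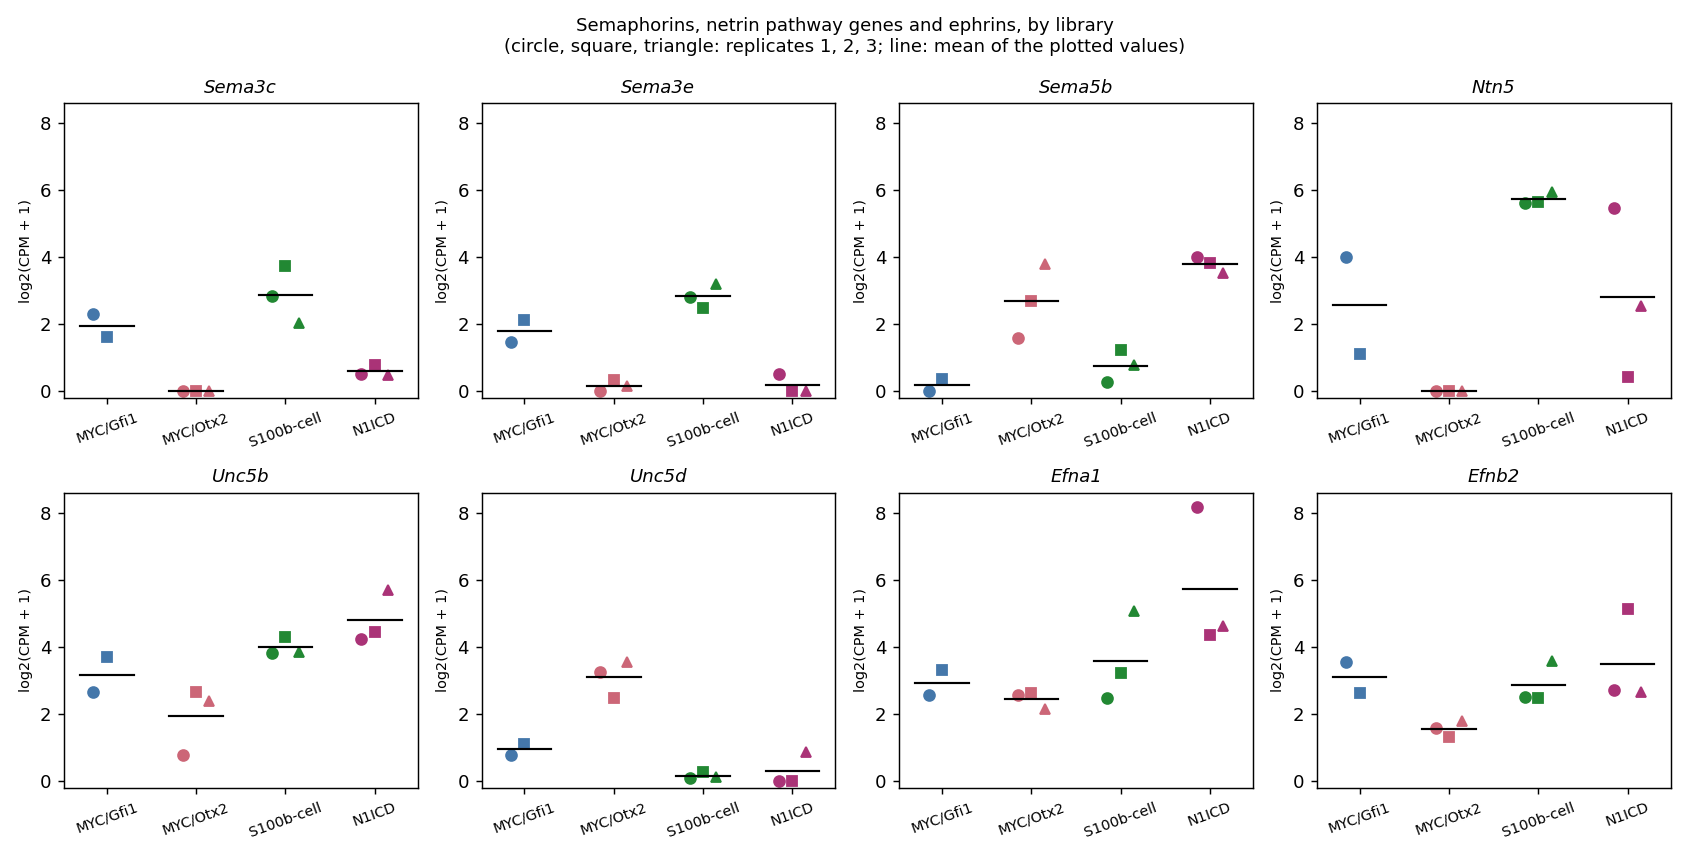
Expression as log2(CPM + 1) of 3 semaphorins, Ntn5, 2 Unc5 receptors and 2 ephrins in each library, by group; symbols mark replicates and lines the mean of the plotted values. Sema3c and Ntn5 sit at 0 in all 3 MYC/Otx2 libraries, Unc5d is highest in those libraries, and N1ICD replicate 1 is the highest library for Efna1.

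Plexins carry the semaphorin signal into the cell, and neuropilins bind class 3 semaphorins and vascular growth factors beside them. Of these 11 genes, 3 were higher and 4 lower in N1ICD than in MYC/Otx2 tumours, where 12.01% of all genes were called higher and 9.76% lower. Plxna3 (chromosome X, 74329066 to 74344689, plus strand), a plexin that works with neuropilins, was lower in both cell-restricted models than in both constitutive groups. Plxna3 was at 25.00, 22.2 and 19.6 CPM in the MYC/Otx2 libraries, 21.3 and 19.5 in the MYC/Gfi1 libraries, 10.7, 4.53 and 6.49 in the N1ICD libraries, and 5.24, 4.15 and 3.91 in the S100b-cell libraries. No library of the constitutive groups overlapped the N1ICD or S100b-cell groups. Against the MYC/Otx2 tumours Plxna3 was lower in the S100b-cell (log2 change -2.32 ± 0.37 SE, edgeR adjusted p = 0.00416) and N1ICD tumours (log2 change -1.62 ± 0.37 SE, edgeR adjusted p = 0.0144). Against the MYC/Gfi1 tumours it was lower in the S100b-cell (log2 change -2.20 ± 0.39 SE, edgeR adjusted p = 0.0240) and N1ICD tumours (log2 change -1.50 ± 0.40 SE, edgeR adjusted p = 0.0390). All 4 differences fall between library sets, which the design does not separate from the models. Plxna3 lost the S100b-cell call against the MYC/Gfi1 tumours without MYC/Gfi1 replicate 2 or any 1 S100b-cell library (edgeR adjusted p = 0.0644 to 0.0838). Plxna3 lost the N1ICD call against the MYC/Gfi1 tumours without any 1 MYC/Gfi1 library or N1ICD replicate 2 or 3 (edgeR adjusted p = 0.0787 to 0.0980). The calls against the MYC/Otx2 tumours held without any single library.

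Plxnb2, a plexin of granule cell precursors, was highest in the MYC/Otx2 tumours on average. Plxnb2 was at 29.1, 52.2 and 24.6 CPM in the MYC/Otx2 libraries, 22.1 and 26.0 in the MYC/Gfi1 libraries, 17.1, 16.4 and 17.4 in the N1ICD libraries, and 10.4, 12.0 and 13.7 in the S100b-cell libraries. Plxnb2 was lower than in the MYC/Otx2 tumours in the S100b-cell (log2 change -1.56 ± 0.32 SE, edgeR adjusted p = 0.0117) and N1ICD tumours (log2 change -1.05 ± 0.32 SE, edgeR adjusted p = 0.0421). Plxnb2 kept its S100b-cell call against the MYC/Otx2 tumours without any single library. Plxnb2 lost the N1ICD call against the MYC/Otx2 tumours without MYC/Otx2 replicate 1 or 2 or any 1 N1ICD library (edgeR adjusted p = 0.0658 to 0.162), and the log2 change was -0.66 without MYC/Otx2 replicate 2. Plxna2 was at 14.8, 29.3 and 32.5 CPM in the MYC/Otx2 libraries, 19.8 and 10.5 in the MYC/Gfi1 libraries, 14.5, 11.7 and 12.9 in the S100b-cell libraries, and 3.00, 7.67 and 10.1 in the N1ICD libraries. Plxna2, a receptor of class 6 semaphorins, was lower in N1ICD than in MYC/Otx2 tumours (log2 change -1.87 ± 0.49 SE, edgeR adjusted p = 0.0248). Plxna2 lost the N1ICD call against the MYC/Otx2 tumours without MYC/Otx2 replicate 2 or 3 or N1ICD replicate 2 (edgeR adjusted p = 0.0573 to 0.0781).

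Plxnd1 (chromosome 6, 115954811 to 115995005, minus strand), the plexin of endothelium that binds Sema3e, was low in the MYC/Otx2 tumours. Plxnd1 was at 8.15, 23.0 and 16.6 CPM in the N1ICD libraries, 7.89, 6.15 and 6.41 in the S100b-cell libraries, 7.93 and 5.81 in the MYC/Gfi1 libraries, and 1.70, 0 and 0.809 in the MYC/Otx2 libraries. Every MYC/Otx2 library lay below every other library. Plxnd1 exceeded its MYC/Otx2 level in the N1ICD (log2 change 4.25 ± 0.93 SE, edgeR adjusted p = 0.0122) and S100b-cell tumours (log2 change 3.02 ± 0.89 SE, edgeR adjusted p = 0.0409). Plxnd1 kept its N1ICD call against the MYC/Otx2 tumours without any single library. Plxnd1 lost the S100b-cell call against the MYC/Otx2 tumours without MYC/Otx2 replicate 3 or any 1 S100b-cell library (edgeR adjusted p = 0.0804 to 0.117). Plxnb1 was at 156, 63.4 and 78.7 CPM in the N1ICD libraries, 57.4 and 100.2 in the MYC/Gfi1 libraries, 25.9, 37.5 and 50.4 in the MYC/Otx2 libraries, and 37.2, 19.5 and 37.1 in the S100b-cell libraries. Plxnb1, a receptor of Sema4d, was higher in N1ICD than in MYC/Otx2 tumours (log2 change 1.39 ± 0.43 SE, edgeR adjusted p = 0.0429). Plxnb1 lost the N1ICD call against the MYC/Otx2 tumours without any 1 MYC/Otx2 library or N1ICD replicate 1 or 3 (edgeR adjusted p = 0.0545 to 0.136), and the log2 change was 0.91 without N1ICD replicate 1. Plxna1, a plexin of class 3 and class 6 semaphorins, was not called in any comparison and was between 27.9 and 87.1 CPM in all 11 libraries.

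The neuropilins differed in opposite directions between the N1ICD and MYC/Otx2 tumours. Nrp1 was at 24.4, 166 and 37.7 CPM in the N1ICD libraries, 54.9, 34.6 and 23.4 in the S100b-cell libraries, 17.6 and 28.3 in the MYC/Gfi1 libraries, and 9.61, 13.5 and 12.6 in the MYC/Otx2 libraries. Nrp1 (chromosome 8, 128358604 to 128503363, plus strand), the neuropilin of Sema3a and of endothelium, was higher in the N1ICD tumours (log2 change 2.68 ± 0.67 SE, edgeR adjusted p = 0.0208), with all 3 libraries above all MYC/Otx2 libraries. Nrp1 lost the N1ICD call against the MYC/Otx2 tumours without any 1 MYC/Otx2 library or N1ICD replicate 2 (edgeR adjusted p = 0.0558 to 0.0770), and the log2 change was 1.39 without N1ICD replicate 2. Nrp2 was at 125, 62.1 and 45.8 CPM in the S100b-cell libraries, 96.9 and 12.9 in the MYC/Gfi1 libraries, 43.8, 62.2 and 52.7 in the MYC/Otx2 libraries, and 3.00, 8.72 and 15.8 in the N1ICD libraries. Nrp2 (chromosome 1, 62703285 to 62818695, plus strand), the neuropilin of Sema3f, was lower in the N1ICD tumours (log2 change -2.52 ± 0.76 SE, edgeR adjusted p = 0.0412), with no overlap. Nrp2 lost the N1ICD call against the MYC/Otx2 tumours without any 1 MYC/Otx2 library or N1ICD replicate 1 or 2 (edgeR adjusted p = 0.0779 to 0.105). Endothelial markers summed to 645 CPM in N1ICD replicate 2 and to 97.8 to 147 CPM in the MYC/Otx2 libraries. Esam gave 387 CPM of the first sum, and without it the list was at 258 CPM in N1ICD replicate 2, 83.7 to 130.4 CPM in the MYC/Otx2 libraries and 246 CPM in MYC/Gfi1 replicate 2. Cldn5 and Vwf were at 0.349 and 0.697 CPM in N1ICD replicate 2, within the MYC/Otx2 range. With Esam, the list was at 101 to 135 CPM in the S100b-cell and 83.0 and 286 CPM in the MYC/Gfi1 libraries. In those libraries Plxnd1 was at 5.81 to 7.93 CPM, and in the MYC/Otx2 libraries at 0 to 1.70 CPM. The part of endothelial cells in the results for Nrp1, Plxnd1 and Efnb2 was not tested.

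In the netrin system 4 of the 7 tested genes were called higher and 1 lower in N1ICD than in MYC/Otx2 tumours (12.01% and 9.76% of all genes). In the S100b-cell tumours 2 were called higher and 1 lower than in the MYC/Otx2 tumours (10.02% and 7.89% of all genes). Ntn5 (chromosome 7, 45684022 to 45694556, plus strand), a short netrin, had no count in the 3 MYC/Otx2 libraries. Ntn5 was at 48.3, 48.8 and 61.0 CPM in the S100b-cell libraries, 43.3, 0.349 and 4.87 in the N1ICD libraries, 15.2 and 1.16 in the MYC/Gfi1 libraries, and 0, 0 and 0 in the MYC/Otx2 libraries. The S100b-cell libraries were close to each other, while the N1ICD libraries ran from 0.349 to 43.3 CPM. Against a floor of 3 counts over the MYC/Otx2 group, Ntn5 was at least 417-fold higher in the S100b-cell and at least 128-fold higher in the N1ICD tumours (edgeR adjusted p = 0.0165 and 0.0241). Ntn5 kept its S100b-cell call against the MYC/Otx2 tumours without any single library. Ntn5 lost the N1ICD call against the MYC/Otx2 tumours without any 1 MYC/Otx2 library or N1ICD replicate 1 (edgeR adjusted p = 0.0508 to 0.0632). Sec1, on the opposite strand, shares 519 exonic bases with Ntn5 and was at 10.4, 10.3 and 10.9 CPM in the S100b-cell libraries, 3.00, 0 and 1.22 CPM in the N1ICD libraries and 0 in the MYC/Otx2 libraries. Without the strand setting of the counting, reads of these genes cannot be told apart where they overlap.

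Ntn4, a netrin of basement membranes, was higher in N1ICD than in MYC/Otx2 tumours (log2 change 5.35 ± 1.35 SE, edgeR adjusted p = 0.0214). Ntn4 was at 3.00, 4.18 and 4.87 CPM in the N1ICD libraries, 3.17, 0.692 and 0.391 in the S100b-cell libraries, 0.583 and 2.61 in the MYC/Gfi1 libraries, and 0, 0.249 and 0 in the MYC/Otx2 libraries. The N1ICD libraries lay above every MYC/Otx2 library, with 31 counts summed over the N1ICD libraries against 2 over the MYC/Otx2 libraries, a ratio of 48.0 (95% exact interval 12.2 to 414). Ntn4 lost the N1ICD call against the MYC/Otx2 tumours without MYC/Otx2 replicate 1 or 3 (edgeR adjusted p = 0.0688 to 0.0689). Ntn1 was at 1.62, 5.05 and 3.05 CPM in the S100b-cell libraries, 3.61 and 1.89 in the MYC/Gfi1 libraries, 2.14, 0.697 and 3.25 in the N1ICD libraries, and 0.848, 0.125 and 0.116 in the MYC/Otx2 libraries. Ntn1, the classical netrin, was higher in S100b-cell than in MYC/Otx2 tumours (log2 change 3.14 ± 0.95 SE, edgeR adjusted p = 0.0459), with no overlap between these groups. Ntn1 lost the S100b-cell call against the MYC/Otx2 tumours without MYC/Otx2 replicate 2 or 3 or any 1 S100b-cell library (edgeR adjusted p = 0.0606 to 0.133).

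The Unc5 receptors, which mediate repulsion from netrins, differed in opposite directions. Unc5d was at 8.62, 4.61 and 10.6 CPM in the MYC/Otx2 libraries, 0.699 and 1.16 in the MYC/Gfi1 libraries, 0.0647, 0.207 and 0.0782 in the S100b-cell libraries, and 0, 0 and 0.812 in the N1ICD libraries. Unc5d (chromosome 8, 28646717 to 29219636, minus strand) was highest in the 3 MYC/Otx2 libraries and lower than there in the S100b-cell (log2 change -5.91 ± 1.00 SE, edgeR adjusted p = 0.00554) and N1ICD tumours (log2 change -4.83 ± 1.07 SE, edgeR adjusted p = 0.0129). The N1ICD comparison rested on 190 counts summed over the MYC/Otx2 libraries against 2 over the N1ICD libraries, a ratio of 30.6 (95% exact interval 8.37 to 255), and its log2 change was -9.12 without N1ICD replicate 3. Both calls of Unc5d held without any single library. Unc5b was at 18.0, 20.9 and 51.5 CPM in the N1ICD libraries, 13.3, 18.6 and 13.4 in the S100b-cell libraries, 5.25 and 11.9 in the MYC/Gfi1 libraries, and 0.706, 5.36 and 4.28 in the MYC/Otx2 libraries. Unc5b (chromosome 10, 60762593 to 60831581, minus strand), the Unc5 of vessels, was higher in N1ICD than in MYC/Otx2 tumours (log2 change 3.12 ± 0.71 SE, edgeR adjusted p = 0.0144). Unc5b kept its N1ICD call against the MYC/Otx2 tumours without any single library. In that comparison all 10 endothelial markers had a positive log2 change (median 1.45, 3 called higher). All 10 pericyte and smooth muscle markers had one too (median 4.47, 9 called higher), where 12.01% of all genes were called higher. The part of these cells in the results for Unc5b and Ntn4 was not tested. Unc5c was at 34.3, 3.49 and 4.87 CPM in the N1ICD libraries, 6.88 and 17.3 in the MYC/Gfi1 libraries, 2.33, 2.14 and 2.502 in the S100b-cell libraries, and 0.848, 3.36 and 0.693 in the MYC/Otx2 libraries. Unc5c, the receptor mutated in rostral cerebellar malformation of mice, was called for N1ICD against MYC/Otx2 (log2 change 3.10 ± 0.97 SE, edgeR adjusted p = 0.0451). Unc5c lost the N1ICD call against the MYC/Otx2 tumours without MYC/Otx2 replicate 1 or 3 or N1ICD replicate 1 (edgeR adjusted p = 0.132 to 0.248), and the log2 change was 1.34 without N1ICD replicate 1. Dcc, the attractive netrin receptor, had 41 counts in MYC/Gfi1 replicate 1 and was not tested.

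**Figure D4:**
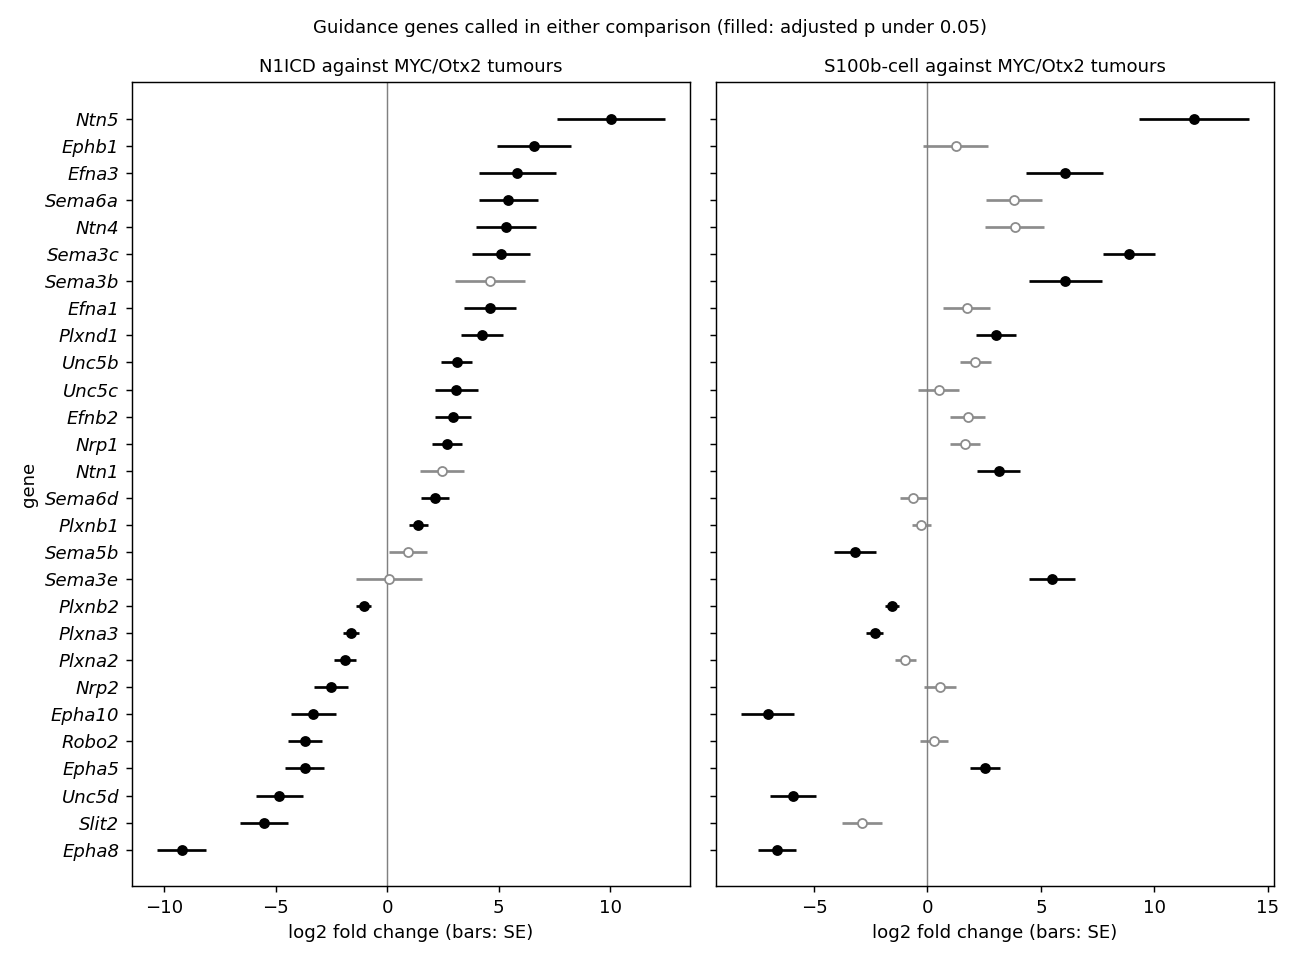
Log2 fold change with its SE for the guidance genes called in either comparison, for N1ICD against MYC/Otx2 (left) and S100b-cell against MYC/Otx2 (right), which share the MYC/Otx2 libraries; filled points passed an adjusted p of 0.05. Epha8, Unc5d, Epha10, Plxna3 and Plxnb2 are lower in both panels, and Epha5 is lower on the left and higher on the right; the values of Ntn5 and Sema3c depend on a prior count because the MYC/Otx2 libraries held none.

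Partners and cytoplasmic mediators of guidance signals were read from a list of 62 genes, of which 59 were tested. Against the MYC/Otx2 tumours, 8 rose and 9 fell in the N1ICD tumours (28.8%, background 21.8%) and 3 rose and 9 fell in the S100b-cell tumours (20.3%, background 17.9%). Against the MYC/Gfi1 tumours, 3 rose and 7 fell in the N1ICD tumours (16.9%, background 11.5%), and 2 fell in the S100b-cell tumours (3.39%, background 4.35%). In the N1ICD against the S100b-cell tumours 2 rose and 1 fell (5.08%, background 1.21%), and in the MYC/Otx2 against the MYC/Gfi1 tumours 1 rose and 2 fell (5.08%, background 5.46%). The median log2 changes of the 59 ran from -1.02 for S100b-cell against MYC/Gfi1 to 0.04 for N1ICD against S100b-cell.

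Rock1, a kinase that contracts the growth cone, was at 487 ± 169 CPM (mean ± SD, n = 3) in the N1ICD, 123 ± 16.6 CPM (n = 3) in the MYC/Otx2 and 116 ± 13.2 CPM (n = 2) in the MYC/Gfi1 tumours. Rock1 was higher in the N1ICD tumours than in the MYC/Otx2 (log2 change 1.99 ± 0.25 SE, edgeR adjusted p = 0.00136) and MYC/Gfi1 tumours (log2 change 2.07 ± 0.30 SE, edgeR adjusted p = 0.00561). Enah, an actin regulator at the tip of the growth cone, averaged 7.65 ± 2.80 CPM in S100b-cell, 84.6 ± 57.6 CPM in the N1ICD and 85.3 ± 23.2 CPM in the MYC/Otx2 tumours (n = 3 each). It was higher in N1ICD than in S100b-cell tumours (log2 change 3.46 ± 0.55 SE, edgeR adjusted p = 0.0227) and lower in S100b-cell than in MYC/Otx2 tumours (log2 change -3.48 ± 0.55 SE, edgeR adjusted p = 0.00410). Dpysl5, a collapsin response mediator of semaphorin signals, averaged 0.263 ± 0.117 CPM in S100b-cell and 29.8 ± 9.16 CPM in the MYC/Otx2 tumours (log2 change -6.75 ± 1.36 SE, edgeR adjusted p = 0.0106). Its relative Dpysl3 was at 6.82 ± 1.24 CPM in the N1ICD and 76.6 ± 29.3 CPM in the MYC/Otx2 tumours (log2 change -3.49 ± 0.67 SE, edgeR adjusted p = 0.00705). Pak1, a kinase effector of Rac, was lower in the N1ICD tumours, at 2.49 ± 0.488 CPM, than in the MYC/Gfi1 tumours (log2 change -6.10 ± 0.90 SE, edgeR adjusted p = 0.00644), whose SD exceeded their mean (172 ± 206 CPM). These mediator calls were not refitted with libraries left out.

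Guidance genes also varied within groups. The 69 genes summed to 1714 CPM in replicate 1 of the N1ICD tumours, 699 CPM in replicate 2 and 635 CPM in replicate 3, against 633 to 961 CPM in the other groups. Ephrins alone took 487 CPM in N1ICD replicate 1 and 32.5 to 87.6 CPM in every other library. N1ICD replicate 1 was the highest of its group in 35 of the 63 genes tested. The same share over all genes was not taken, so this count is not read as a trait of the guidance genes. On the log2(CPM + 1) scale, the highest and lowest N1ICD libraries were 1.45 apart in the median guidance gene and 0.91 apart in the median gene tested. The same ranges were 0.81 and 0.60 in the MYC/Otx2, 0.95 and 0.56 in the S100b-cell and 0.93 and 0.73 in the MYC/Gfi1 tumours. Of the 69 genes, 25 had their highest group mean in the N1ICD tumours, among them 6 of the 8 ephrins. The MYC/Gfi1, S100b-cell and MYC/Otx2 tumours had the highest mean for 17, 16 and 11 genes. Among the tested genes, 24 of the 63 (38.1%) and 26.4% of all genes had their highest mean in the N1ICD tumours. Without N1ICD replicate 1, a setting added after the data were seen, these shares were 23.8% and 25.5%, and of all 69 genes 16 and of the ephrins 5 had it there.

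**Figure D5:**
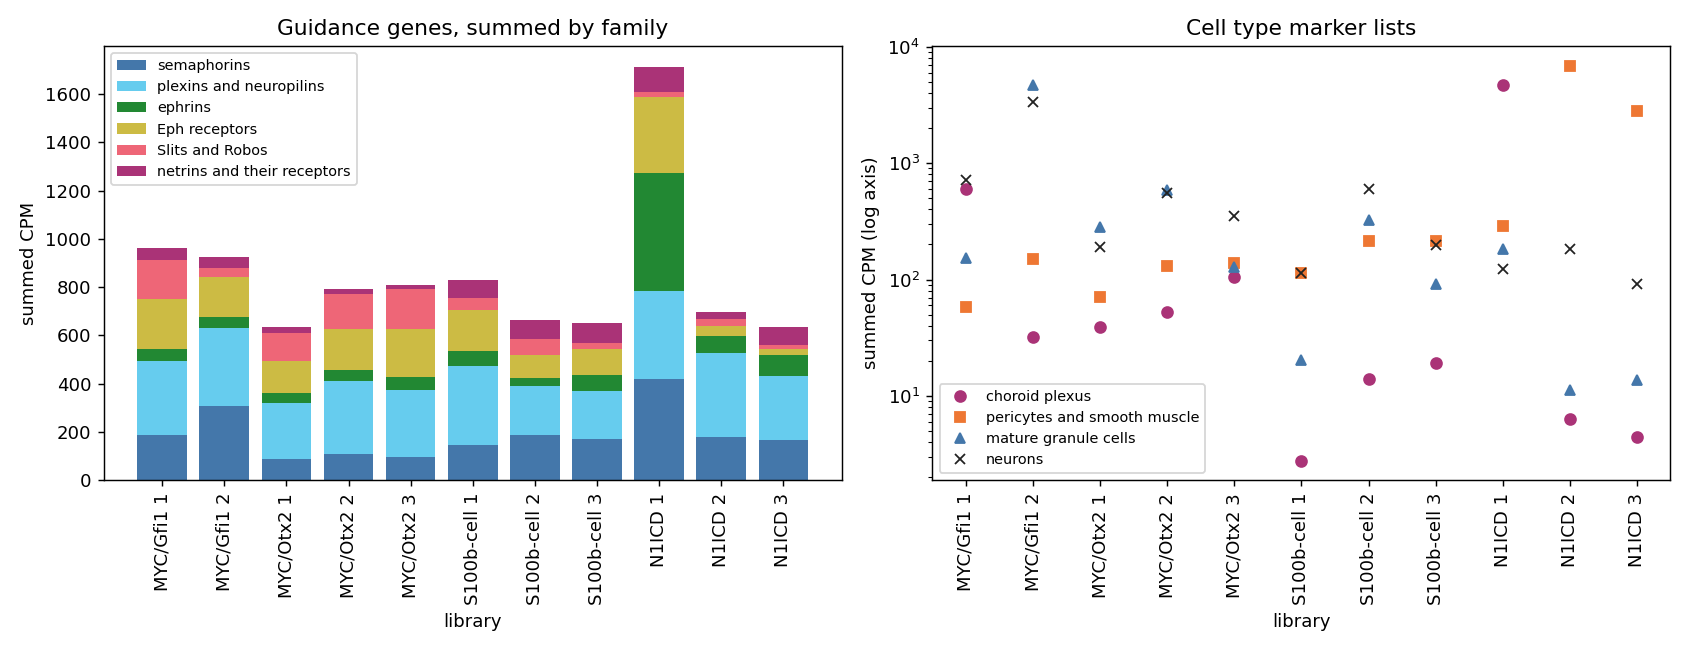
Left, CPM of the 69 guidance genes summed by family in each library; right, summed CPM of 4 cell type marker lists in each library on a log axis. N1ICD replicate 1 has the tallest bar, with the largest ephrin part, and the highest choroid plexus sum; N1ICD replicates 2 and 3 have the highest pericyte sums and MYC/Gfi1 replicate 2 the highest granule cell sum.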

How the data were processed

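Messenger RNA was sequenced from its 3′ ends (QuantSeq FWD, with unique molecular identifiers, per the labels' protocols) in 11 libraries of 2.58 to 15.19 M counts. The deposited table holds raw counts per gene symbol, made by the authors, with no scaling. The submitters' processing notes name STAR 2.4.1d, HTSeq 0.6.1 and mm10. No source used here states the annotation, the strand setting or whether identifiers were collapsed, so floors of 3 counts cover counting error only.

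Libraries were grouped by title. Genes were filtered with filterByExpr (15228 of 38406 kept), scaled by TMM and fitted over the 4 groups at once in edgeR 4.0.16 (glmQLFit and glmQLFTest, robust; R 4.3.3), since 1 group had only 2 libraries. P-values were two-sided and adjusted over the genes tested in each of 6 comparisons. The SE is the log2 change divided by the square root of F, and a fitted log2 change against a group with few counts depends on a prior count. CPM used the TMM-scaled totals of the tested genes, and levels of different genes are not compared. The script was tested on simulated data. Alternatives were DESeq2 1.42.0, voom (limma 3.58.1), other scaling factors, no filter, fits of the compared groups alone, a replicate block and each library left out. Within groups, libraries differed by a chi-square of at least 20.89 per degree of freedom, so none was a copy. The members, gene lists and rules were chosen with earlier results of these data known. Genes named are all called members, the 3 of each family with the highest mean CPM, members without counts in 1 group and at least 10 CPM in another, untested members, and some of the 4 mediators with the smallest p per comparison; any other is marked. Positions are from GENCODE M21, and promoters from RefSeq. Efna3, Epha10, Ephb1, Ntn5, Plxna1, Plxnb1 and Unc5c share exonic bases with a gene on the opposite strand, so their counts are uncertain.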

Additional observations from a re-analysis of the deposited data

How the results depend on the processing

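Without the low-count filter, MYC/Otx2 against MYC/Gfi1 gave 2 called guidance genes in place of 4, and 2.92% of all genes in place of 5.46%. DESeq2 called 11 for N1ICD against MYC/Gfi1 (7 with edgeR), 10 for S100b-cell against MYC/Gfi1 (3), 13 for N1ICD against S100b-cell (2), 19 for MYC/Otx2 against MYC/Gfi1 (4) and 24 for S100b-cell against MYC/Otx2 (14), where it called 22.1, 15.1, 8.93, 17.7 and 28.4% of all genes. Limma-voom called 1 for N1ICD against MYC/Gfi1, 0 for N1ICD against S100b-cell (16 at an unadjusted p under 0.05) and 8 for N1ICD against MYC/Otx2 (24 with edgeR), with 6.66, 0.834 (15.2 unadjusted) and 14.6% of all genes. With the compared groups fitted alone, edgeR called 0 for N1ICD and 0 for S100b-cell against MYC/Gfi1 (12 and 16 at an unadjusted p under 0.05, with 20.9 and 21.6% of all genes), 1 for MYC/Otx2 against MYC/Gfi1 (2.71% of all genes) and 23 for S100b-cell against MYC/Otx2 (33.9%). Leaving out each library in turn gave 4 to 8 for N1ICD against MYC/Gfi1, 0 to 7 for S100b-cell against MYC/Gfi1, 0 to 1 for N1ICD against S100b-cell, 0 to 5 for MYC/Otx2 against MYC/Gfi1, 9 to 20 for N1ICD against MYC/Otx2 and 8 to 11 for S100b-cell against MYC/Otx2; where this left 1 MYC/Gfi1 library, that library was assumed to vary like the others. The cause of these shifts was not tested. With a replicate block, edgeR called 4 for N1ICD against MYC/Gfi1 (5.18% of all genes) and 1 for N1ICD against S100b-cell (0.387%). It called 15 for N1ICD against MYC/Otx2 (14.5% of all genes). For S100b-cell and for MYC/Otx2 against MYC/Gfi1 it called 0 (0.670 and 1.37% of all genes). In those 2 comparisons, 14 and 17 members had an unadjusted p under 0.05, with 18.7 and 22.4% of all genes. The replicate numbers do not pair the libraries: same-numbered libraries of different groups had deviations correlated from -0.169 to 0.187, others from -0.268 to 0.268, and 3 of 11 libraries correlated best with their own number.

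Of the 54 called differences, 54 were kept with RLE factors, 52 with upper-quartile factors, 41 without the filter, 24 with limma-voom, 30 with the replicate block and 34 of 49 with the compared groups fitted alone. DESeq2 kept all 53 for which it gave an adjusted p. No called difference changed sign under any of these alternatives or without any library. In an N1ICD library, a level under 1.05 to 1.29 CPM rests on fewer than 3 counts, and the N1ICD call of Sema3c rests on 4 counts over 3 such libraries.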

Other observations

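Guidance genes outside the tests were seen in few libraries. The 6 genes with too few counts to test had at most 41 (Dcc), 18 (Unc5a), 17 (Epha2), 7 (Efna5), 5 (Epha1) and 4 (Epha6) counts in any library. Unc5a, a netrin receptor of neurons, had 18 counts in MYC/Gfi1 replicate 1 and at most 3 elsewhere. Robo3, named after its values were seen, was highest in the same library, 5.83 CPM against 0.145 CPM in replicate 2. Robo3 is the Robo of commissural axons. That library also held the highest sum of lymphocyte and plasma cell markers (628 CPM), whose part in these levels was not tested.

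Efnb3, Plxnc1 and Sema7a, chosen after their values were seen, had 1 high library each in the N1ICD group. Efnb3, a midline ephrin, was at 91.3, 2.44 and 2.84 CPM in N1ICD replicates 1, 2 and 3, and Plxnc1, the receptor of Sema7a, at 106, 7.67 and 10.96 CPM. Sema7a was at 1.71, 26.8 and 7.71 CPM, highest in replicate 2. Neither Efnb3, Plxnc1 nor Sema7a was called by edgeR in any comparison.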
